A study of Mus musculus with 6 samples.

Results

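Cadherins are the transmembrane or membrane-anchored proteins through which cells of a tissue hold on to their neighbours. The 7 cadherin genes described here, Cdh1, Cdh2, Cdh3, Cdh5, Cdh11, Cdh13 and Cdh16, were taken by name, and each was found among the 24077 genes of the single-cell table and the 30828 genes of the spatial tables. Uteri came from 12-month-old female CD-1 mice that had been injected as newborns, on days 1 to 5 of life, with corn oil (CO, the vehicle control) or with 1 mg/kg/day of the synthetic estrogen diethylstilbestrol (DES) in corn oil. The horns of 2 CO mice were pooled into 1 trypsin-dissociated single-cell library and those of 4 DES mice into another, and 2 CO sections (CO A, CO B) and 2 DES sections (DES A, DES B), each of 1 mouse, were measured on spatial arrays. CO mice were in estrus and DES mice in the persistent estrus that follows this exposure, DES sections were chosen to hold adenocarcinoma, and CO B had a fold in the tissue. Because each single-cell condition is 1 pooled library, treatment and library cannot be told apart there.

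In classical cadherins, the extracellular repeats bind cadherins of the next cell when calcium is present, and the cytoplasmic tail binds p120 and beta-catenin, which reaches actin through alpha-catenin. Cdh1 (E-cadherin) holds epithelia together, Cdh2 (N-cadherin) is known from nerve, heart and mesenchyme, Cdh3 (P-cadherin) from placenta and basal epithelial layers, Cdh5 (VE-cadherin) from endothelial junctions and Cdh11 (OB-cadherin) from mesenchymal cells. The name classical does not strictly cover the other two: Cdh13 (T-cadherin) lacks a cytoplasmic tail and is held in the membrane by a lipid anchor, and Cdh16 (Ksp-cadherin), known from kidney epithelium, has a short tail without the catenin sites.

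On GRCm38 (the build also named mm10; GENCODE M21 annotation), 6 of the 7 genes lie on chromosome 8 and 1, Cdh2, on chromosome 18. In order along chromosome 8 they are Cdh11 (chr8:102632095-102785642, minus strand), Cdh5 (chr8:104101625-104144511, plus), Cdh16 (chr8:104601911-104624396, minus), Cdh3 (chr8:106510891-106557297, plus), Cdh1 (chr8:106603351-106670246, plus) and Cdh13 (chr8:118283733-119324921, plus). Cdh2 lies at chr18:16588877-16809246 on the minus strand. Cdh3 and Cdh1 are neighbours in the same direction, with 46053 bases between them, and all 7 are protein-coding genes.

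Counts are of unique molecular identifiers (UMIs, 1 for each RNA molecule). A median of 6779 UMIs was found in the 32387 cells of CO, and of 10153.5 in the 16312 cells of DES. The authors named a cell type for 12253 CO and 9701 DES cells, and 180 cell barcodes occur in both libraries, 32 of them among the cells with a type. The sections held 1357 to 1834 spots and 9117099 to 12506177 UMIs. Levels are given in CPM, counts of a gene per 1000000 UMIs of a group of cells or spots, with exact Poisson 95% intervals in parentheses. For shares of cells with a UMI, each cell was thinned at random to 3000 UMIs so that depth was equal, and shallower cells were left out. This kept 2562 of 2583 CO epithelial cells, 4559 of 4608 non-basal DES epithelial cells and 322 of 341 CO endothelial cells, but 310 of 423 CO lymphocytes. The shares have exact Clopper-Pearson intervals. All these intervals cover counting error only. Cell types and clusters were formed by the authors on the same counts, so levels in them are described and not tested, and levels are compared within a gene, not between genes.

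The authors' cell types split the CO library into epithelium with Cdh1 and Cdh16, mesothelium (the outer lining) with Cdh3 and Cdh11, endothelium with Cdh5 and Cdh13, stroma with Cdh11, and myocytes with Cdh2. Epithelial cells carried 90.7% of the Cdh1 UMIs and 93.4% of the Cdh16 UMIs of all CO cells with a type. Mesothelial cells carried 96.9% of Cdh3, 76.3% of Cdh2 and 74.0% of Cdh11, and endothelial cells 77.9% of Cdh5 and 52.1% of Cdh13. In the DES library, which holds 1 stromal and 5 endothelial cells with a type, epithelial cells carried 98.1% of Cdh1, 97.4% of Cdh16, 96.8% of Cdh13 and 85.1% of Cdh2. Mesothelial cells there carried 98.1% of Cdh11 and 92.9% of Cdh3. The largest source of Cdh2 was thus mesothelium in CO and epithelium in DES, and the epithelial share of Cdh13 was 22.9% in CO and 96.8% in DES.

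**Figure D1:**
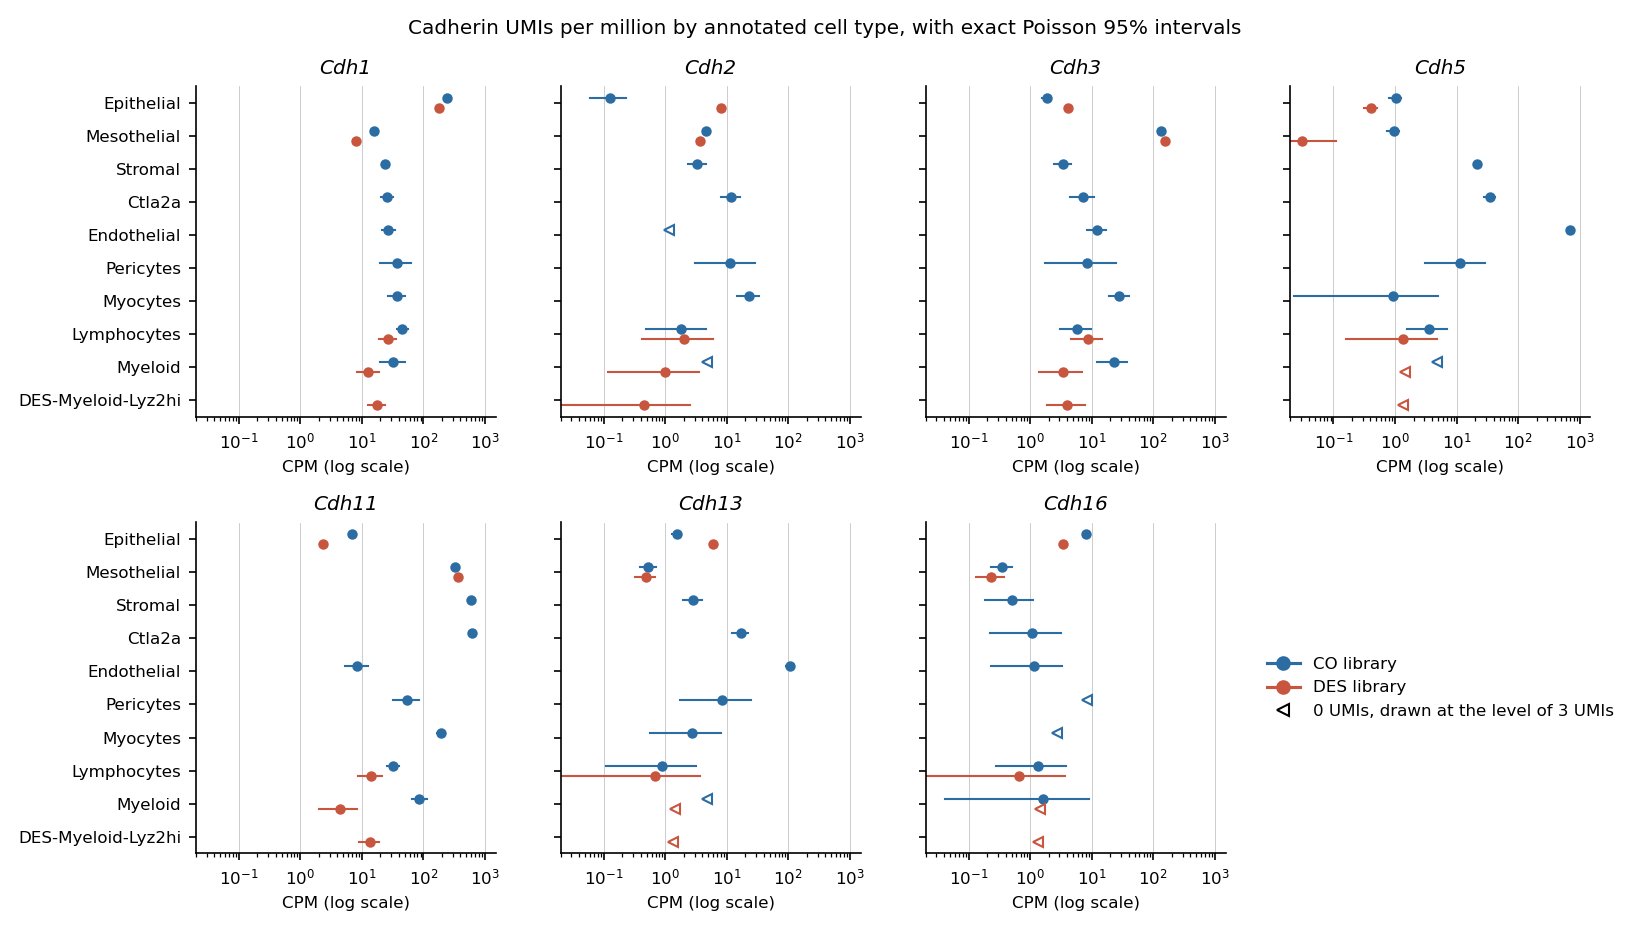
Level of each cadherin in CPM (horizontal log axis) in each cell type named by the authors (vertical axis), with points for the CO library (blue) and the DES library (red), lines for exact Poisson 95% intervals, and open triangles for 0 UMIs drawn at the level of 3 UMIs. DES stromal and endothelial cells (1 and 5 cells) and the 22 CO Stmn1-hi cells are left out; Cdh2 in epithelial cells stands at 0.127 CPM in CO and 8.0 CPM in DES.

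Cdh1, the junction protein of epithelia, stood at 241 CPM in CO epithelial cells (238 to 245; 19007 UMIs in 2583 cells) and at 183 CPM in the DES cells of the authors' 16 non-basal epithelial clusters (181 to 185; 30079 UMIs in 4608 cells). After thinning, 47.9% of CO epithelial cells (45.9 to 49.8) and 41.1% of the DES cells (39.7 to 42.6) held a Cdh1 UMI. The same share was 6.83% in CO stromal and 5.17% in CO mesothelial cells, types not expected to make the protein, whose median depths were 8726.5 and 10436 UMIs against 23458 in CO epithelial cells. Before thinning the shares were 95.6% in CO and 93.3% in DES epithelial cells. In the order of CO cell types, 2 of 8 neighbouring pairs had separate intervals, namely epithelium from lymphocytes at 45.8 CPM and, at the lower end, stroma at 23.9 CPM from mesothelium at 15.9 CPM. In DES the order again ran from epithelium to mesothelium, the lowest at 7.96 CPM (7.28 to 8.68).

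Within CO epithelium, Cdh1 was highest in luminal cells (LE, 255 CPM, 251 to 259), followed by the cluster that the study calls epithelial stem cells (EpSC, 170 CPM, 151 to 190) and glandular cells (GE, 148 CPM, 140 to 156). The GE to LE ratio was 0.579 (exact conditional interval 0.546 to 0.612), while the intervals of EpSC and GE overlapped. Over 14 CO clusters of at least 50 cells Cdh1 ran from 128 CPM in glandular cluster 8 to 392 CPM in luminal cluster 7, and over 16 DES clusters from 123 CPM in cluster 3 to 279 CPM in cluster 10. Cluster 10 is also the shallowest of these DES clusters, with a median of 6343.5 UMIs per cell. Only 2 of the 13 neighbouring CO pairs and 2 of the 15 DES pairs had separate intervals, so most clusters could not be told from the next in Cdh1.

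Cdh16, whose protein is a cadherin of kidney tubules, followed the glands in CO. It stood at 45.2 CPM in GE (40.9 to 49.9; 394 UMIs in 183 of 417 cells), 3.53 CPM in LE (3.1 to 4.0; 241 UMIs) and 1.13 CPM in EpSC (2 UMIs), a GE to LE ratio of 12.8 (10.9 to 15.1). The 4 glandular clusters 3, 8, 14 and 13 stood at 51.8, 43.5, 35.3 and 23.6 CPM, and every luminal cluster lay below them. After thinning, 9.4% of GE and 1.30% of LE cells held a UMI, against 0.0744% of CO mesothelial cells. In DES, where the study distinguishes no glandular or luminal clusters, cluster 7 stood highest at 15.2 CPM (139 UMIs in 78 of 215 cells), followed by clusters 8 and 11 at 7.02 and 5.24 CPM. Cluster 7 was thus the only DES cluster whose interval lay apart from that of its neighbour in the order, and its level lay below those of the CO glandular clusters, with an interval (12.8 to 18) that overlapped only that of glandular cluster 13 (14.6 to 36).

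**Figure D2:**
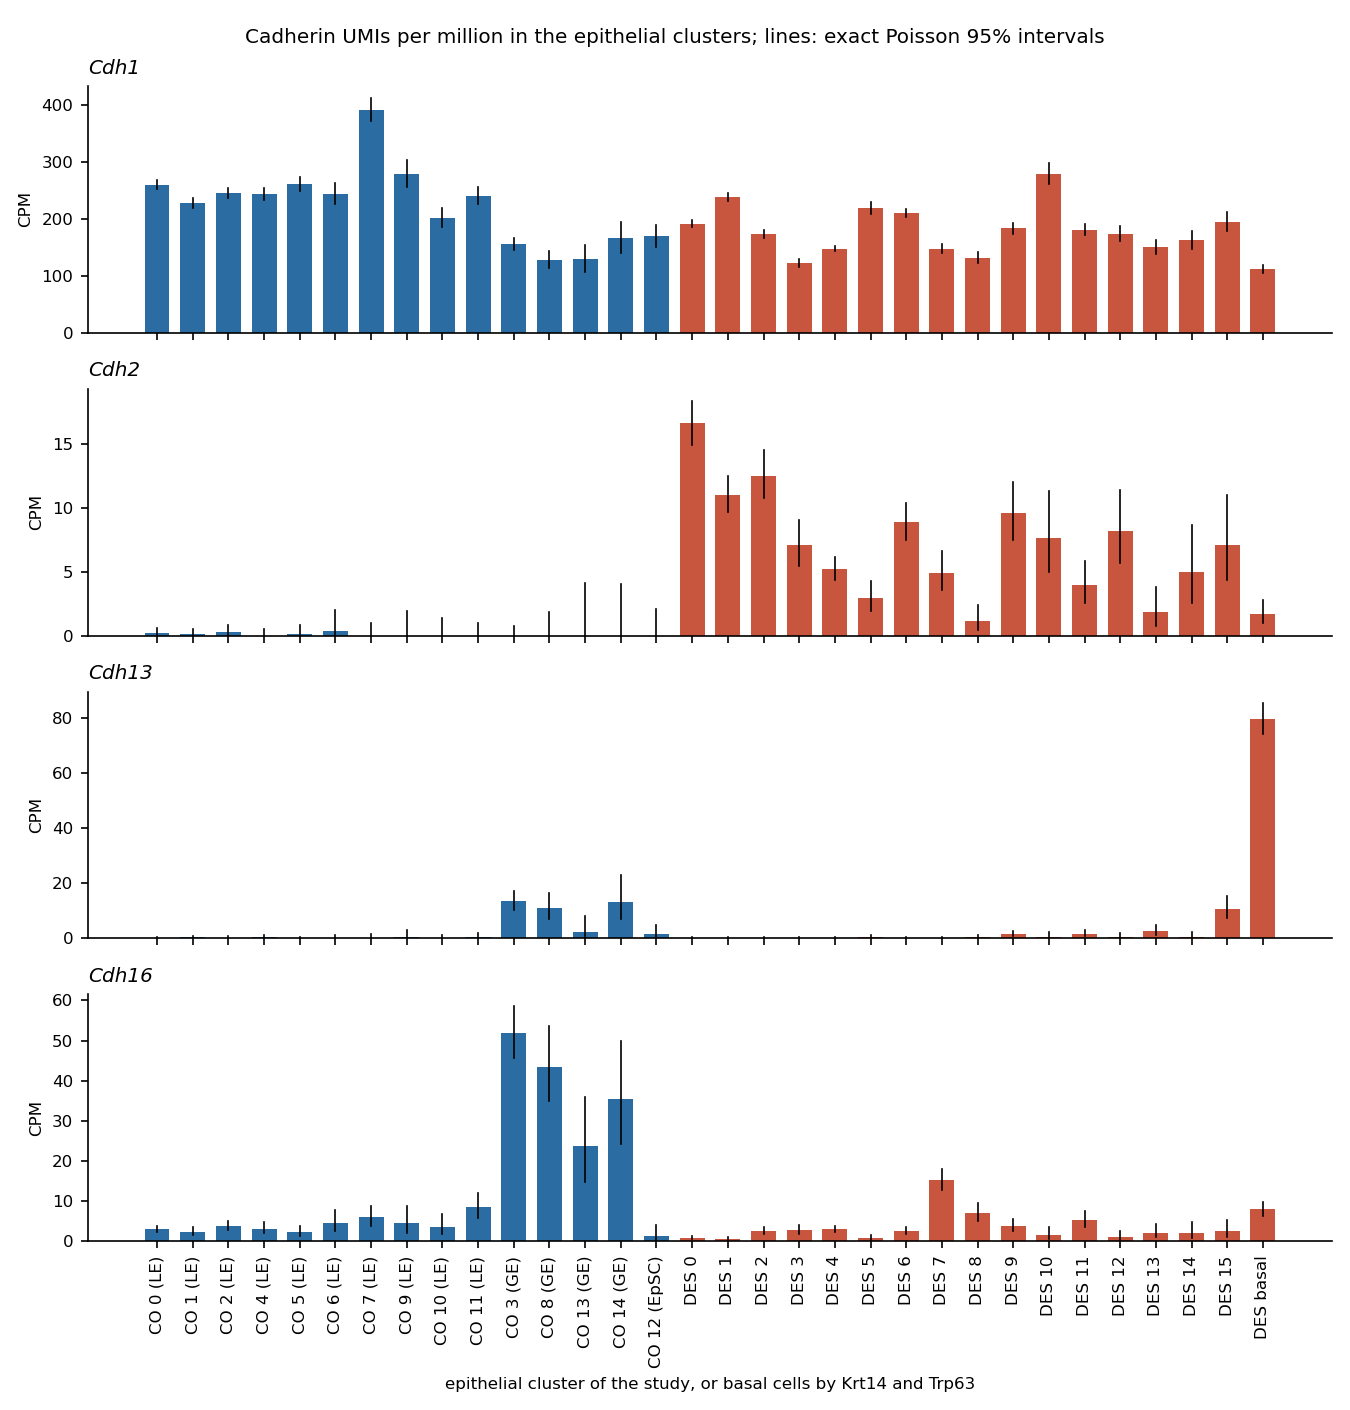
Level of Cdh1, Cdh2, Cdh13 and Cdh16 in CPM (linear axes from 0) in each epithelial cluster of the study and in DES basal cells, with CO bars in blue, DES bars in red and lines for exact Poisson 95% intervals. Cdh16 and Cdh13 stand in the CO glandular clusters (GE), Cdh2 in the DES clusters and Cdh13 in the DES basal cells at 79.5 CPM.

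Cdh2 was nearly absent from CO epithelium and present in the DES clusters. In 2583 CO epithelial cells there were 10 Cdh2 UMIs, each in a different cell (0.127 CPM, 0.0609 to 0.233), all in luminal clusters. In the 4608 non-basal DES epithelial cells there were 1396 (8.51 CPM, 8.07 to 8.97), in 834 cells (18.1%, 17 to 19.2), of which 298 held 2 or more and 1 held 23. The 47 cells with the most Cdh2, 1% of the cells, carried 18.9% of its UMIs. The signal was therefore spread over many cells, though unevenly. After thinning the shares were 2.11% in DES (1.71 to 2.57) and 0.0390% in CO, and 0 of 322 CO endothelial cells (interval up to 1.14%) held a UMI. Their median depths were 24663.5, 23458 and 6309 UMIs.

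UMIs of Cdh2 were found in all 16 non-basal DES clusters, from 16.6 CPM in cluster 0 (352 UMIs in 185 of 669 cells) through 12.5 CPM in cluster 2 and 11 CPM in cluster 1 down to 1.17 CPM in cluster 8 (7 UMIs). The highest CO cluster, luminal cluster 6, stood below all of these at 0.353 CPM, but from 1 UMI, and its upper limit of 1.97 CPM reached the lowest DES clusters. Other types of the DES library not expected to make the protein stood at 2.01 CPM (lymphocytes, 0.415 to 5.89; 3 UMIs) and 0.981 CPM (myeloid cells, 0.119 to 3.54; 2 UMIs), intervals that held the level of the lowest DES cluster, which is thus not read as above background. Only 1 of the 15 neighbouring pairs in the DES order had separate intervals. Basal DES cells, defined below, stood at 1.72 CPM (17 UMIs), a ratio to the non-basal cells of 0.202 (0.117 to 0.325). Among thinned non-basal DES cells, 50 of 4559 held UMIs of both Cdh1 and Cdh2, 1.10% (0.815 to 1.44) where 0.866% would be expected if the 2 genes fell independently. At this depth no avoidance between Cdh1 and Cdh2 was detectable. Outside the epithelium Cdh2 was highest in CO myocytes (22.8 CPM, 14.8 to 33.7; 25 UMIs), followed by the cells the authors name Ctla2a (11.8 CPM) and pericytes (11.3 CPM, 4 UMIs), whose intervals overlapped. Mesothelial cells stood at 4.56 CPM in CO (4.11 to 5.04) and 3.72 CPM in DES (3.26 to 4.22).

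Cdh3, the P-cadherin of basal layers, was in these libraries first a mesothelial gene. It stood at 136 CPM in CO mesothelial cells (134 to 139; 11322 UMIs) and 157 CPM in DES mesothelial cells (154 to 160; 10135 UMIs), with thinned shares of 29.8% and 36.4%. The 22 CO cells named Stmn1-hi stood at 146 CPM (112 to 188). CO epithelium was the lowest CO type at 1.85 CPM (1.56 to 2.18), with a thinned share of 0.585%, and non-basal DES epithelium stood at 1.19 CPM (1.03 to 1.37). Mesothelial cells of both libraries also carried Cdh11, and among thinned cells 17.8% in CO (1199 of 6718) and 23.3% in DES (881 of 3782) held UMIs of both genes, where 17.8% and 22.7% would be expected from independence. The label mesothelial was borne out by the summed level of its 5 markers, 2667 CPM in CO and 2727 CPM in DES, but the 5 stromal markers were higher in these cells still (17796 and 19031 CPM) than in CO stromal cells (11622 CPM).

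The DES library also held basal epithelial cells, defined by at least 2 UMIs each of Krt14, a keratin of basal layers, and of their transcription factor Trp63. There were 483 such cells in DES and 0 among the 2583 CO epithelial cells, where a limit of 3 cells would be 0.116%, and 4 of the 483 lie in the non-basal clusters. Cdh3 stood at 47.9 CPM in them (43.7 to 52.4; 474 UMIs in 287 of 483 cells) against 1.19 CPM in the non-basal clusters, a ratio of 40.3 (34.1 to 47.9). Cdh13 stood at 79.5 CPM (74.0 to 85.2; 786 UMIs in 331 cells) against 0.549 CPM, a ratio of 145 (116 to 182). Of the other members, Cdh16 (ratio 2.64, 2.05 to 3.36) and Cdh11 (1.65, 1.14 to 2.33) were also higher in basal cells, and Cdh1 (112 against 183 CPM; 0.609, 0.573 to 0.647) and Cdh2 were lower. Cdh5 had 0 UMIs there against 62 in the non-basal cells, and its ratio has an upper limit of 1.02. The 2 clusters of the authors' joint clustering that hold these cells both had high Cdh13 (71.3 and 107 CPM) and Cdh3 (45.9 and 55.9 CPM). Of 483 thinned basal cells, 20 held both Cdh3 and Cdh13 (4.14%, 2.55 to 6.32; 3.48% expected from independence).

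Cdh13, the tailless T-cadherin known from blood vessels, was in CO highest in endothelial cells (105 CPM, 92.6 to 118; 275 UMIs), with a thinned share of 23.0% against 0.194% of CO mesothelial cells (median depths 6309 and 10436 UMIs). In CO epithelium it was glandular, like Cdh16: 11.7 CPM in GE (102 UMIs) and 0.234 CPM in LE (16 UMIs), a ratio of 50 (29.4 to 90.8). EpSC held 3 UMIs (1.70 CPM). The highest of the 16 non-basal DES clusters, cluster 15 at 10.6 CPM, had 24 of its 30 UMIs in 1 cell. A further 168 DES epithelial cells lie in none of these clusters and miss the basal rule. In them Cdh13 stood at 75.2 CPM (65.0 to 86.6; 193 UMIs in 93 cells) and Cdh3 at 29.2 CPM (23.0 to 36.6; 75 UMIs), with Krt14 at 2243 and Trp63 at 34.7 CPM, and 132 of them are in the joint clusters of the basal cells. The Cdh13 interval overlapped that of the basal cells, and the Cdh3 interval lay below it.

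Cdh5, the cadherin of endothelial junctions, marked 87.6% of thinned CO endothelial cells (83.5 to 91.0; 702 CPM, 670 to 735). Cells named Ctla2a stood at 34.4 CPM and stromal cells at 21.6 CPM, with thinned shares of 9.34% and 5.76%, and the share in CO mesothelial cells was 0.387%. The 5 DES endothelial cells held 25 UMIs (477 CPM, 309 to 705), all 5 with at least 1. In the order of CO types, endothelium stood apart and 3 of 8 neighbouring pairs had separate intervals. Of 322 thinned CO endothelial cells, 66 held both Cdh5 and Cdh13 (20.5%, with 20.1% expected from independence).

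Cdh11, the OB-cadherin of mesenchyme, was highest in CO Ctla2a cells (626 CPM, 597 to 656) and stromal cells (590 CPM, 577 to 605), whose intervals overlapped. Mesothelial cells stood lower, at 332 CPM in CO (329 to 336) and 367 CPM in DES (362 to 371), and myocytes at 193 CPM (168 to 221). CO epithelial cells were lowest at 6.81 CPM (6.25 to 7.42), with a thinned share of 1.87% against 73.1% of CO stromal cells. The intervals of stromal and mesothelial cells in CO, and of mesothelial cells in DES, thus lay apart from those of epithelium. DES stroma, with 1 cell, could not be compared.

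Set against each other, the non-basal epithelial cells of the DES library had less of every cadherin than CO epithelial cells except Cdh2. The DES to CO ratio was 67.1 for Cdh2 (36.4 to 140), 0.760 for Cdh1 (0.746 to 0.774) and 0.642 for Cdh3 (0.515 to 0.801). It was 0.372 for Cdh5 (0.263 to 0.525), 0.370 for Cdh16 (0.328 to 0.416), 0.357 for Cdh13 (0.269 to 0.473) and 0.324 for Cdh11 (0.283 to 0.371). Past 2-fold, 1 of the 7 was higher and 4 were lower, where 23.3% of the 12724 genes at 1 CPM or more in either library were past 2-fold either way. The median log2 ratio of the 7 was -1.43, beside 0.12 over all those genes. Markers moved with these ratios. The 4 epithelial markers summed to 4503 CPM in the CO and 3014 CPM in the DES cells, and the 5 mesothelial markers, of the type that carries most Cdh3 and Cdh11, to 49.5 and 24.2 CPM. The 5 stromal markers summed to 232 CPM in the CO and 92.6 CPM in the DES cells, with Dpt at 0 UMIs in DES, and the 4 endothelial markers to 4.35 and 1.35 CPM, with none at 0. Their part in the result was not tested. The sizes also changed with a looser choice of cells, by a UMI of Epcam and of Krt18 (13902 CO and 7380 DES cells). As the authors name only 2583 CO cells epithelial, most CO cells of that set have another type or none. It is thus a mixed set and not another definition of epithelium. In it the ratio was 4.54 for Cdh2, 1.07 for Cdh1 and 0.0613 for Cdh5. With 1 library a condition, no test of these differences was possible.

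**Figure D3:**
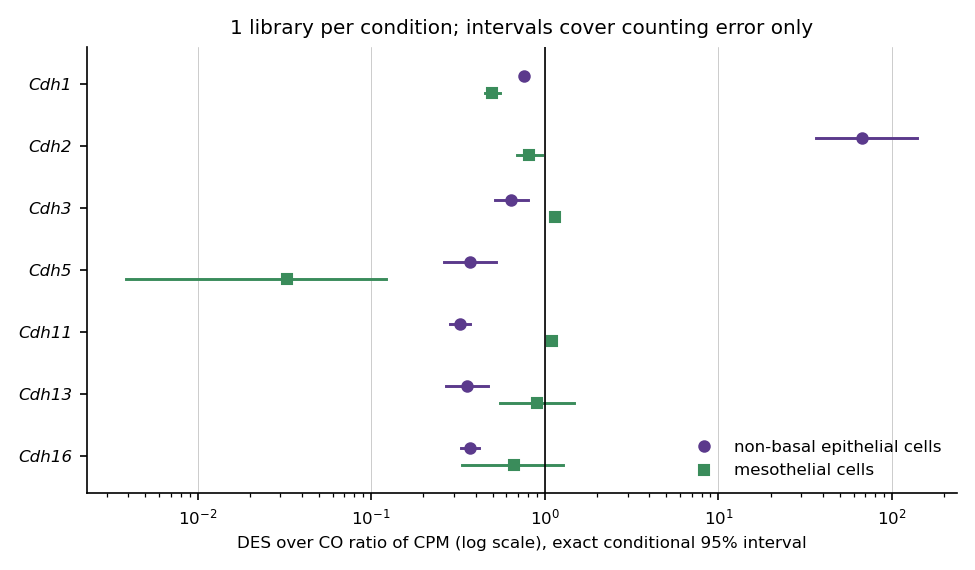
DES to CO ratio of each cadherin (horizontal log axis) with exact conditional 95% intervals, in non-basal epithelial cells (circles) and mesothelial cells (squares); the vertical line marks 1, and there is 1 library per condition. Cdh2 stands at 67.1 in epithelial cells and 0.815 in mesothelial cells.

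The DES to CO ratio was also taken in mesothelial cells, 6866 in CO and 3837 in DES. It was 1.15 for Cdh3 (1.12 to 1.18), 1.10 for Cdh11 (1.08 to 1.12), 0.815 for Cdh2 (0.690 to 0.960) and 0.499 for Cdh1 (0.450 to 0.553). For Cdh5 it was 0.0326 (0.00388 to 0.122), from 2 UMIs in DES and 79 in CO. The intervals of Cdh13 (0.906, 0.553 to 1.47) and Cdh16 (0.665, 0.332 to 1.28) held 1. Of the 4 members at 1 CPM or more, 1 (Cdh1) was past 2-fold, lower, where 8.69% of 13164 genes were past 2-fold. The 4 epithelial markers summed to 1997 CPM in the CO and 1251 CPM in the DES mesothelial cells, and their part in the Cdh1 ratio was not tested. In CO stromal cells the same sum was 518 CPM, and Cdh1 was lower in CO mesothelial than in CO stromal cells, as given above.

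The partners of the cadherins were read in the same epithelial cells. All 14 listed adherens junction genes were at 1 CPM or more, and 2 were past 2-fold, near the 23.3% of all genes, with a median log2 ratio of -0.32. Ctnnb1 (beta-catenin) stood at 612 CPM in CO and 493 CPM in DES, Ctnnd1 (p120) at 136 and 111 CPM, and Ctnna1 (alpha-catenin) at 180 and 112 CPM. Vcl (vinculin, which ties the junction to actin) was lower (91.2 and 36.3 CPM, ratio 0.398) and Nectin1, an adhesion protein that recruits cadherins, was higher (0.444 and 1.41 CPM, ratio 3.18). Of the 6 transcription factors known to repress Cdh1, 2 reached 1 CPM, and both, Zeb1 (1.17 and 0.226 CPM) and Zeb2 (1.73 and 0.183 CPM), were lower in DES, as were the stromal and endothelial marker sums of these cells given above, whose part was not tested. Snai2 was at 0.520 CPM in CO and 0.323 CPM in the non-basal DES cells but at 59.9 CPM in the basal DES cells, which also had Nectin1 at 54.0 CPM.

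In the sections a spot covers several cells, so a level reflects both how many cells of a type are present and how much RNA each holds, and fewer cells of a type cannot be told apart from less RNA per cell. Sums were taken in each section over the whole tissue and over 3 regions: the 15% of spots highest in epithelial markers (epithelium-rich), the 15% highest in muscle markers (muscle-rich) and the spot clusters that the study names stroma (stromal). The test of DES against CO was the quasi-likelihood test of edgeR, adjusted by Benjamini-Hochberg over every gene tested, with a threshold of 0.05. Alternatives to this test are listed below under processing. Leaving out a section leaves 1 in its group. Without a CO section more genes were called over whole sections and in epithelium-rich and muscle-rich spots. Without a DES section most calls over whole sections and all in epithelium-rich spots were lost. DESeq2 called more genes than edgeR in every comparison. Passing or losing the threshold in these settings was thus common to many genes. Over whole sections and in epithelium-rich and muscle-rich spots, TMM scaling factors raised the CO values relative to the DES values (0.886 and 0.914 in CO, 1.13 and 1.09 in DES for epithelium-rich spots). Folds from the test are there below those of plain CPM for genes higher in DES. In stromal spots the factors were 0.989 and 0.979 in CO A and CO B and 1.08 and 0.953 in DES A and DES B, so this did not hold for DES B.

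Over whole sections, Cdh3 stood at 6.32 CPM (79 UMIs) in CO A and 6.34 CPM (70 UMIs) in CO B, and at 28.8 CPM (263 UMIs) in DES A and 26.1 (258 UMIs) in DES B. Both DES sections lay above both CO sections, which were nearly equal to each other. The 3 basal markers over whole sections summed to 3.36, 160, 9526 and 5644 CPM in CO A, CO B, DES A and DES B. By edgeR none of the 3 was called, and their part in the result was not tested. The log2 fold change of Cdh3, DES against CO, was 1.91 (SE 0.20), with adjusted p = 0.0212 in edgeR's test. It was the only 1 of the 7 members past the threshold, where 5.30% of 14098 genes were called either way and 2.67% as higher in DES. The call rested on both DES sections: in edgeR without DES A the log2 fold change was 1.85 (adjusted p = 0.151) and without DES B 1.93 (adjusted p = 0.149), and over all alternatives the adjusted p ran from 7.58e-07 to 0.151.

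In epithelium-rich spots Cdh3 stood at 0.269 CPM in CO A (1 UMI), 0.982 CPM in CO B (3 UMIs), 24.7 CPM (51 UMIs) in DES A and 25.1 (49 UMIs) in DES B. The DES sections lay far above the CO sections, where the gene was close to undetected. Summed over sections, 100 UMIs against 4 gave a CPM ratio of 42.1 (counting interval 16 to 158), and the log2 fold change was 4.99 (SE 0.53), with adjusted p = 0.0134 in edgeR's test. It was the single call among the 6 members that passed the filter on low counts (Cdh2 did not), where 8.03% of 11405 genes were called either way and 5.00% as higher in DES. In edgeR this call too was lost without DES A (log2 fold change 5.02) and without DES B (4.94), as were the other calls in these spots. It was kept at a log2 fold change of 4.32 without CO A and of 5.99 without CO B. Over the alternatives that keep all 4 sections the adjusted p of Cdh3 ran from 3.32e-06 (DESeq2) to 0.0168 (edgeR with the top 30% of spots). All 3 basal markers moved with Cdh3: Krt14, Krt5 and Trp63 summed to 4.3 CPM in CO A, 197 CPM in CO B, 9393 CPM in DES A and 6718 in DES B, with none at 0 in any section. The summed mesothelial markers were also higher in DES in these spots, at 8.61, 13.1, 39.8 and 50.1 CPM in CO A, CO B, DES A and DES B. So were the muscle sum (270, 255, 607 and 910 CPM) and the myeloid sum (143, 246, 1500 and 735 CPM). Not every marker rose: 2 of 3 mesothelial markers tested, 4 of 5 muscle and 4 of 5 myeloid markers had a log2 fold change above 0. By edgeR Upk3b of the mesothelial, Des and Acta2 of the muscle, and C1qa, Lyz2 and Csf1r of the myeloid markers were called higher. None of the 3 basal markers was called by edgeR, with adjusted p = 0.052 for Krt14, 0.0973 for Krt5 and 0.0645 for Trp63. Of the 4 pericyte markers, Notch3 was called higher and Rgs5 lower. The part of all these markers in the result was not tested.

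Cdh13 in the same epithelium-rich spots stood at 2.15 CPM in CO A (8 UMIs), 6.87 CPM in CO B (21), 25.2 CPM (52 UMIs) in DES A and 18.9 (37 UMIs) in DES B. The DES sections lay above the CO sections, but the log2 fold change of 2.02 (SE 0.54) missed the threshold in edgeR (adjusted p = 0.0853). The log2 fold change was 1.4 without CO A, 3.0 without CO B, 1.81 without DES A and 2.17 without DES B. The adjusted p over alternatives that keep every section ran from 0.0155 (edgeR with no filter) to 0.103 (edgeR with top 30% of spots). Edge cases were common, as edgeR with no filter called 1661 of all 17394 genes. Over whole sections Cdh13 stood at 5.52, 13.4, 26.3 and 23.4 CPM in CO A, CO B, DES A and DES B, again without overlap, and the log2 fold change was 1.2 (SE 0.43; edgeR, adjusted p = 0.181). It was 0.70 without CO A, 1.93 without CO B, 1.14 without DES A and 1.24 without DES B. The adjusted p over alternatives that keep every section ran from 0.0877 (DESeq2) to 0.179 (edgeR with no filter). The basal marker sums given above for Cdh3 moved with Cdh13 in the same order of groups, with CO B above CO A in both, and their part was not tested.

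Cdh1 over whole sections stood at 150 and 121 CPM in CO A and CO B and at 242 and 257 CPM in DES A and DES B. The groups did not overlap, but the log2 fold change of 0.67 (SE 0.20) missed the threshold (edgeR, adjusted p = 0.124). The log2 fold change was 0.86 without CO A, 0.51 without CO B, 0.73 without DES A and 0.575 without DES B. The adjusted p over alternatives that keep every section ran from 0.0755 (DESeq2) to 0.225 (edgeR with the section number as a block). In epithelium-rich spots the levels were 268, 251, 337 and 333 CPM, which overlapped after TMM scaling, and the log2 fold change there was 0.07 (SE 0.18; edgeR, adjusted p = 0.855). In muscle-rich spots Cdh1 stood at 1.75 CPM (3 UMIs) and 5.85 CPM (10 UMIs) in CO A and CO B, and at 23.0 CPM (16 UMIs) and 53.5 CPM (52 UMIs) in DES A and DES B. There the DES sections were higher without overlap, and the log2 fold change was 3.12 (SE 0.62; edgeR, adjusted p = 0.0611). The log2 fold change was 2.49 without CO A, 4.23 without CO B, 3.58 without DES A and 2.33 without DES B. In edgeR the last of these missed the threshold. The 4 epithelial markers in these spots summed to 263 and 160 CPM in CO and 420 and 791 CPM in DES. The 3 basal markers there summed to 1.75 and 8.20 CPM in CO and 1573 and 1745 CPM in DES. The part of both sets of markers in the result was not tested.

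Cdh2, which stood higher in DES than in CO epithelial cells of the single-cell libraries, was lower in the DES sections. Over whole sections it stood at 5.84 CPM (73 UMIs) and 6.89 CPM (76 UMIs) in CO A and CO B, and at 2.08 CPM (19 UMIs) and 1.01 CPM (10 UMIs) in DES A and DES B. Both DES sections lay below both CO sections, and the log2 fold change was -2.25 (SE 0.44; edgeR, adjusted p = 0.0597). It was -2.34 without CO A, -2.15 without CO B, -2.82 without DES A and -1.86 without DES B. DESeq2 on all 4 sections gave an adjusted p of 0.00445, but called 1791 of 14098 genes where edgeR called 747. In edgeR's other alternatives that keep every section the adjusted p ran from 0.0517 (no filter) to 0.0873 (section number as a block). In muscle-rich spots Cdh2 stood at 18.1, 12.9, 5.76 and 2.06 CPM, and the log2 fold change was -2.27 (SE 0.58; edgeR, adjusted p = 0.114). It was -2.04 without CO A, -2.47 without CO B, -3.05 without DES A and -1.64 without DES B. Over the alternatives that keep all 4 sections the adjusted p ran from 0.00951 (edgeR with no filter) to 0.324 (DESeq2). The 5 muscle markers moved with Cdh2, at 13345, 14168, 3077 and 3458 CPM over whole sections and at 50157, 51398, 26621 and 21667 CPM in muscle-rich spots, and their part was not tested. In epithelium-rich spots only 4, 3, 2 and 1 Cdh2 UMIs were found in CO A, CO B, DES A and DES B. At the level of the non-basal DES cells, 8.51 CPM, the DES spots would have held 17.5 and 16.6 UMIs. At the level of the CO epithelial cells, 0.127 CPM, the CO spots would have held 0.472 and 0.388 UMIs, below the number found. The 2 assays differ in chemistry and in the cells they capture, so the values stand side by side without a test.

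Cdh5 was lower in DES over whole sections, at 18.2 and 28.4 CPM in CO A and CO B and at 11.3 and 9.41 CPM in DES A and DES B. The groups did not overlap, and the log2 fold change was -1.37 (SE 0.28; edgeR, adjusted p = 0.0629). It was -1.64 without CO A, -1.05 without CO B, -1.485 without DES A and -1.29 without DES B. DESeq2 gave an adjusted p of 0.00434, but called 1791 of 14098 genes where edgeR called 747. In edgeR's other alternatives that keep every section the adjusted p ran from 0.0557 (no filter) to 0.0967 (section number as a block). In stromal spots Cdh5 stood at 50.1, 86.7, 12.8 and 28.9 CPM, lower in DES without overlap (log2 fold change -1.97, SE 0.52; edgeR, adjusted p = 0.118). The log2 fold change there was -2.35 without CO A, -1.51 without CO B, -1.22 without DES A and -2.56 without DES B. The adjusted p over alternatives that keep every section ran from 0.000913 (edgeR with no filter) to 0.211 (DESeq2). In muscle-rich spots Cdh5 stood at 7.60, 14.1, 36 and 38.1 CPM, higher in DES without overlap (log2 fold change 1.55, SE 0.39; edgeR, adjusted p = 0.109). Over the alternatives that keep all 4 sections the adjusted p ran from 0.0109 (edgeR with no filter) to 0.263 (DESeq2). The log2 fold change of Cdh5 there was 1.14 without CO A, 2.08 without CO B, 1.60 without DES A and 1.49 without DES B. With the top 30% of spots it was 0.75 (edgeR, adjusted p = 0.168). The 4 endothelial markers moved the same way, summing to 61.3 and 90.2 CPM in CO and 38.5 and 45.2 CPM in DES over whole sections, to 170 and 235 CPM in CO and 70.9 and 162 CPM in DES stromal spots, and to 56.7 and 58.5 CPM in CO and 150 and 137 CPM in DES muscle-rich spots. Their part in the result was not tested. Over all cells of the single-cell libraries, which were made from dissociated tissue, Cdh5 stood at 12.6 CPM in CO and 0.377 CPM in DES.

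Cdh11 and Cdh16 showed no separation over whole sections. Cdh11 stood at 66.4, 48.9, 64.8 and 33.2 CPM in CO A, CO B, DES A and DES B, and Cdh16 at 9.92, 3.90, 7.68 and 11 CPM, so that the groups overlapped for both. In edgeR their log2 fold changes were -0.46 (SE 0.36, adjusted p = 0.502) for Cdh11 and 0.22 (SE 0.52, adjusted p = 0.847) for Cdh16. For Cdh11 in muscle-rich spots (81.3, 49.2, 57.6 and 42.2 CPM) the groups overlapped in CPM but not after TMM scaling. Its log2 fold change there was -0.61 (edgeR, adjusted p = 0.449). It was -0.25 without CO A, -0.92 without CO B, -0.82 without DES A and -0.41 without DES B. The adjusted p over alternatives that keep every section ran from 0.232 (edgeR with top 30% of spots) to 0.999 (DESeq2). Cdh16 had 0, 0, 3 and 2 UMIs in the muscle-rich spots and did not pass the filter there. With the top 30% of spots its log2 fold change was 3.32 (edgeR, adjusted p = 0.0226), where 1054 of 11777 genes were called. With no filter it was 4.84 (edgeR, adjusted p = 0.284).

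**Figure D4:**
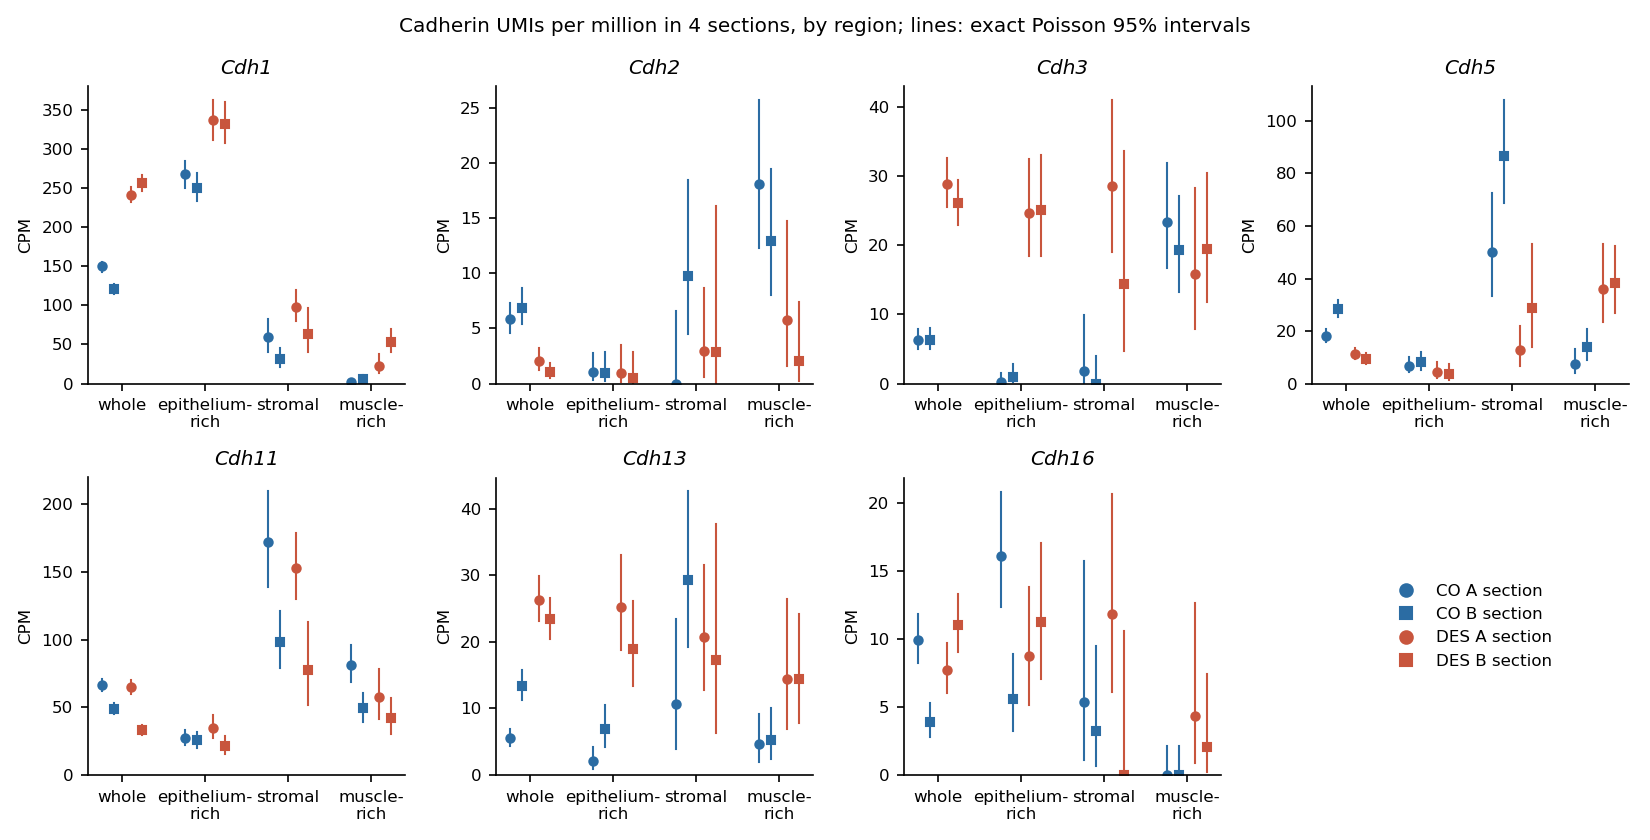
Level of each cadherin in CPM (vertical axes from 0) over whole sections and in 3 regions of the 4 sections, with blue for CO, red for DES, circles for section A, squares for section B and lines for exact Poisson 95% intervals. Cdh3 stands at 24.7 and 25.1 CPM in the epithelium-rich spots of DES against 0.269 and 0.982 CPM in CO, while the 4 sections overlap in muscle-rich spots.

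Not overlapping was itself common among all genes, since 2 sections a group leave few orders. After TMM scaling, CO and DES did not overlap for 5 of 7 members over whole sections, where 56.4% of genes did not, for 3 of 6 in epithelium-rich spots (58.1%), for 3 of 5 in stromal spots (43.5%) and for 6 of 6 in muscle-rich spots (46.0%). In stromal spots none of the 5 members tested was called by edgeR, where 1.47% of 8914 genes were, with 2 of the 5 at an unadjusted p under 0.05 beside 1194 of all 8914 genes, and in muscle-rich spots none of the 6, where 1.68% of 9898 were, with 4 of the 6 at an unadjusted p under 0.05 beside 1485 of all 9898 genes. The member nearest to the threshold in stromal spots was Cdh3, at 1 and 0 UMIs in CO A and CO B and 29 and 5 UMIs in DES A and DES B (log2 fold change 4.69, SE 0.98; edgeR, adjusted p = 0.0615). Summed, 34 UMIs against 1 gave a ratio of 37.0 with a counting interval of 6.2 to 1503. The log2 fold change was 7.12 without CO A, 3.50 without CO B and 4.96 without DES B. The adjusted p over alternatives that keep every section ran from 0.000167 (edgeR with no filter) to 0.128 (DESeq2). Without DES A, which holds 29 of the 34 DES UMIs, Cdh3 did not pass the filter on low counts and was not tested. The stromal spots differed in their other markers too. Basal markers summed to 0 and 90 CPM in CO and 7058 and 1998 CPM in DES, and muscle markers to 888 and 700 CPM in CO and 2705 and 8369 CPM in DES. Stromal markers summed to 5452 and 4056 CPM in CO and 2890 and 1923 CPM in DES, so that DES B stromal spots, 50 of which are also muscle-rich, held more muscle than stromal marker signal. The part of these markers in the stromal values of Cdh3, Cdh5 and the other members was not tested. By DESeq2, 0 of the 5 members in stromal spots were called, where 193 of 8914 genes were, and 1 of the 6 in muscle-rich spots, Cdh1, where 253 of 9898 were.

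Where each cadherin lies within a section was read from the ratio of its CPM in a region to that in the other spots of the same section. The epithelium-rich spots were enriched in Cdh1 in 4 of 4 sections (ratios 1.4 to 3.51) and depleted in Cdh11 (0.327 to 0.595) and Cdh5 (0.227 to 0.330) in 4 of 4, every interval lying on 1 side of 1. Stromal spots were enriched in Cdh11 in 4 of 4 sections (2.22 to 2.84) and in Cdh5 in 3 of 4, with DES A at 1.15 (0.591 to 2.07). Cdh1 in the muscle-rich spots was at 0.0101 to 0.191 of the level elsewhere.

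Cdh3 and Cdh5 lay in different places in the CO and DES sections. In CO, Cdh3 was enriched in muscle-rich spots, with ratios of 6.48 and 4.87 in CO A and CO B. These spots held 50.6% and 47.1% of its UMIs. Little of it lay in epithelium-rich spots (0.0303 and 0.117). In DES A and DES B the muscle-rich ratios of Cdh3 were 0.529 (0.261 to 0.963) and 0.729 (0.431 to 1.16). Its epithelium-rich ratios there were 0.823 (0.594 to 1.12) and 0.95 (0.681 to 1.30). Of these intervals only that of muscle-rich DES A lay below 1. The muscle-rich spots themselves held a like level of Cdh3 in all 4 sections (23.4, 19.3, 15.8 and 19.5 CPM). Mesothelial markers summed there to 66.7, 102, 148 and 139 CPM in CO A, CO B, DES A and DES B. Over whole sections they summed to 36.0, 50.1, 43.4 and 53.1 CPM, and their part was not tested. Cdh5 in muscle-rich spots was at 0.382 and 0.453 of the level elsewhere in CO and at 3.89 and 6.06 in DES. In all 4 sections Cdh2 was higher in muscle-rich than in other spots (2.22 to 4.66), with both CO intervals above 1. These ratios describe single sections, and their difference between CO and DES was not tested.

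**Figure D5:**
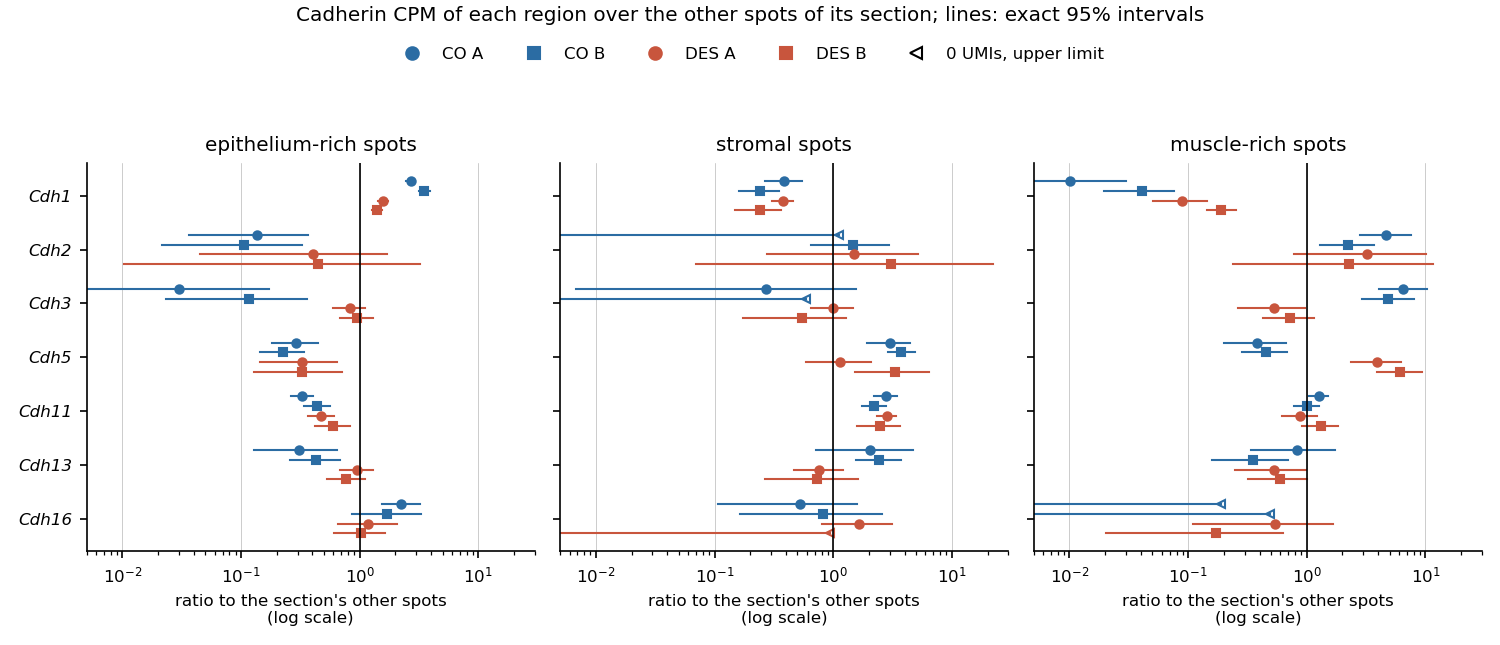
Ratio of each cadherin's CPM in a region to that in the other spots of the same section (horizontal log axes; the vertical line marks 1) for 3 regions and 4 sections, with exact conditional 95% intervals drawn within the axis limits and open triangles at the upper limit where the region held 0 UMIs. In muscle-rich spots Cdh3 lies above 1 in CO and below 1 in DES, where its DES B interval holds 1, and Cdh5 lies below 1 in CO and above 1 in DES.

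Among the partners in the sections, 4 of 14 were called over whole sections, where 5.30% of all genes were. Of the 14, in edgeR's test, 2 adherens junction genes rose, Nectin1 (8.48, 13, 75.0 and 60.8 CPM in CO A, CO B, DES A and DES B; log2 fold change 2.46, adjusted p = 0.0212) and Pvrl4, which encodes nectin-4 (1.51, adjusted p = 0.0230). In edgeR another 2 fell, Pvrl3, which encodes nectin-3 (-2.09, adjusted p = 0.0299), and Vcl (-1.28, adjusted p = 0.0276), and the median of the 14 was 0.18 beside -0.01 over all genes tested. In epithelium-rich spots Nectin1 (3.47, adjusted p = 0.0217) and Pvrl4 (1.17, 0.0362) rose and Pvrl3 (-2.61, 0.0373) fell again by edgeR. Pvrl2, which encodes nectin-2, was not called in edgeR over whole sections (-0.38, adjusted p = 0.221) or in epithelium-rich spots (-0.83, adjusted p = 0.0586). None of the catenin genes Ctnna1, Ctnnb1 and Ctnnd1 passed the threshold in either comparison. Jup, also of the 14, was higher in DES without overlap in both but was not called by edgeR. Its log2 fold change was 1.03 over whole sections (adjusted p = 0.0506) and 0.72 in epithelium-rich spots (adjusted p = 0.081). Of the repressors of Cdh1, 6 were tested over whole sections and none was called by edgeR, with 3 (Snai2, Zeb1 and Twist2) at an unadjusted p under 0.05 beside 3438 of all 14098 genes. In epithelium-rich spots 1 of 4 was called by edgeR, where 8.03% of all genes were, Snai2, which rose (2.15, 1.64, 18.9 and 14.3 CPM; log2 fold change 2.79, adjusted p = 0.0239). The basal marker sums given above moved with Nectin1 and Snai2, and the muscle marker sums over whole sections with Vcl and with Cdh4, given next, and their part was not tested. Of the 16 other cadherin genes listed, 3 were tested over whole sections and Cdh4 (R-cadherin) fell (4.96, 5.71, 1.54 and 1.01 CPM; -2.27, adjusted p = 0.0452 by edgeR). In epithelium-rich spots, where the muscle marker sums were higher in DES, Cdh4 was also lower without overlap but not called. Its mean there was 4.41 CPM in CO and 1.74 CPM in DES (-1.62, adjusted p = 0.126 by edgeR). Stromal spots gave no call among 13 partners by edgeR (1.47% of all genes), and muscle-rich spots gave 1 of 12 (1.68% of all genes), Vcl, which was lower. All these calls of partners, of Snai2 and of Cdh4 were lost in edgeR without DES A and again without DES B, and were kept without either CO section. Most calls of all genes over whole sections and all in epithelium-rich spots were lost in the same fits. Over whole sections, without DES A and without DES B, the log2 fold change was 2.32 and 2.56 for Nectin1 and -1.23 and -1.36 for Vcl. In epithelium-rich spots Nectin1 was at 2.82 without CO A and 4.51 without CO B.

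For each member, the genes whose pattern was most like it were found over 14 groups, each an annotated cell type of 1 library with at least 50 cells, by Pearson correlation of log2(CPM + 1) among genes reaching 10 CPM in a group. Groups of 1 library share its depth and its background RNA, so the values are a description. The closest were Urah (r = 0.989) and Cbr2 (0.986) for Cdh1 beside an unnamed gene model (0.993), Irs1 (0.926), Kctd15 (0.887) and Trmt61a (0.874) for Cdh2, Fmo2 (0.983), Bmp4 (0.966) and Gata6 (0.95) for Cdh3, and Prex2 (0.958), Lpar4 (0.948) and Angpt2 (0.920) for Cdh5. For Cdh11 they were Crispld2 (0.973) and Wt1 (0.972), for Cdh13 Rapgef4 (0.928), Swt1 (0.911) and Slc9a3r2 (0.905), and for Cdh16 Hpn (0.942) and Fam184b (0.925).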

How the data were processed

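The authors deposited UMI count tables, not normalised, of 1 CO and 1 DES single-cell library made with Cell Ranger 3.0.1 and of 4 spatial sections made with Space Ranger 1.2.2, on mm10, per the submitters' processing notes. Cell types and epithelial clusters are the authors' own, and doublets had been removed by them with scran. In the table of cell types, 350 cells had no counts and were not used. No count column was left without a sample. The members and gene lists were chosen with earlier results of these data known.

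Counts were summed per group and divided by the group's total (CPM). The floor of a group at 0 was 3 UMIs or cells. Basal cells had at least 2 UMIs of Krt14 and of Trp63, and thinning to 3000 UMIs used the random seed 11. Epithelium-rich and muscle-rich spots were the top 15% of each section by marker score, and stromal spots the study's stromal clusters (CO A 8, CO B 6, DES A 4, DES B 5). Up to 50 spots of a section fell in both the stromal and the muscle-rich region.

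Section sums were tested with edgeR 4.0.16 in R 4.3.3 (TMM, filterByExpr, quasi-likelihood test, Benjamini-Hochberg threshold 0.05). The step was also run on simulated counts. These had the same spread for every gene and changes only in genes with higher counts, so they do not show its error for genes at low counts. Alternatives used DESeq2 1.42.0, its size factors, no filter, each section left out, the section number as a block, and other spot choices. Each section came from 1 mouse, so a group has 2 mice, too few for an exact test over sections to pass the threshold. The quasi-likelihood test draws each gene's spread toward that of all genes. Its p-values and SEs thus rest in part on spread borrowed from other genes, not only on that between 2 mice a group. The text names all 7 members, the genes of the lists that were called or that define the junction, and, of the 3 genes most like each member, those with a gene name.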

Additional observations from a re-analysis of the deposited data

Results flagged for a closer look

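For Cdh3 the DES sections lay above the CO sections in epithelium-rich spots (log2 fold change 4.99; edgeR, adjusted p = 0.0134) and in stromal spots (4.69, 0.0615), and below them after TMM scaling in muscle-rich spots (-0.47, 0.603). The change passed the threshold only in epithelium-rich spots of these 3 regions, and the difference between regions was not tested.

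For Cdh5 the log2 fold change was 1.55 in muscle-rich spots (edgeR, adjusted p = 0.109), -1.19 in epithelium-rich spots (0.145) and -1.97 in stromal spots (0.118), with no overlap of the groups in any. None of the 3 passed the threshold, 50 spots of DES B are in both the stromal and the muscle-rich region, and the difference between regions was not tested.

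In the single-cell libraries 3 members had ratios on opposite sides of 1 in 2 cell types. The DES to CO ratio of Cdh2 was 67.1 in non-basal epithelial cells and 0.815 in mesothelial cells, that of Cdh3 was 0.642 and 1.15, and that of Cdh11 was 0.324 and 1.10. With 1 library a condition, none of these differences was tested.

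Cells to which the authors gave no cell type entered no comparison of cell types, only the values over whole libraries and the choice of cells by Epcam and Krt18. Cdh2 stood at 4.06 CPM in the 6611 such DES cells (172 UMIs) and at 1.82 CPM in the 20134 such CO cells (309 UMIs).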

How the results depend on the processing

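The number of genes called in the sections depended on single sections. Leaving out each section in turn gave 3 to 2819 calls over whole sections (747 with all 4), 0 to 2531 in epithelium-rich spots (916), 40 to 357 in stromal spots (131) and 80 to 1316 in muscle-rich spots (166). The 0 came without DES A and again without DES B, where 1382 and 1407 genes had an unadjusted p under 0.05 in edgeR. An arm left with 1 section was assumed to vary like the other. DESeq2 gave 1791 calls over whole sections and 253 in muscle-rich spots. With no filter beyond 1 count there were 1661 calls in epithelium-rich, 714 in stromal and 825 in muscle-rich spots, and with the top 30% of spots 1054 in muscle-rich spots. Stromal spots chosen by marker score gave 5 calls. The cause of these differences was not tested.

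The section numbers 1 and 2 are not known to pair mice. Deviations of same-numbered sections correlated at -0.0254, 0.0340, 0.0898 and -0.0455 in whole sections, epithelium-rich, stromal and muscle-rich spots. With the section number as a block there were 527, 1169, 453 and 257 calls, and in stromal spots Cdh3 (adjusted p = 0.0155) and Cdh5 (0.0115) and in muscle-rich spots Cdh1 (0.0118) passed the threshold in edgeR.

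Of 208 alternative values of the members' log2 fold changes, 113 came from fits that kept all 4 sections. Of these, 96 kept the direction and side of the threshold of the edgeR test described above. Another 14 passed it where that test had not, 0 lost the call and 3 turned direction. Of the 95 with a section left out, 8 turned direction, and the calls of Cdh3 rested on both DES sections, as given above. Members that did not pass the filter in the edgeR test of a region are not among the 208 for that region. Those that turned were all uncalled. Many other genes also passed the threshold in fits without a CO section and by DESeq2, as given above. With each section left out, Cdh16 ran from -0.31 to 1.08 over whole sections and from -1.02 to 0.56 in epithelium-rich spots, Cdh1 from -0.01 to 0.13 and Cdh11 from -0.57 to 0.07 in epithelium-rich spots, and in stromal spots Cdh11 from -0.74 to 0.17 and Cdh13 from -0.69 to 0.79. With stromal spots by marker score Cdh11 was 0.09 and Cdh13 0.07, and with the block Cdh13 was 0.04.

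Of 49 alternative single-cell ratios, 40 moved by less than their counting interval and 9 by more, 6 of these with cells chosen by Epcam and Krt18. The shares of cells with a UMI depend on depth: 13 of 14 moved with thinning to 5000 UMIs and 14 of 14 without thinning. Cdh2 in epithelium-rich spots had too few counts to pass the filter and was not tested there with it.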

Other observations

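Among 16 further cadherin genes, 3 reached 1 CPM in epithelial cells of either library. Of these 1, Cdh4 (R-cadherin), was past 2-fold (23.3% of all genes were), at 2.32 CPM in CO and 6.13 CPM in the non-basal DES cells (ratio 2.64), and Cdh10 and Cdh24 had ratios of 1.28 and 0.633. Cdh4 went the other way in the sections, also in epithelium-rich spots, as given above. In mesothelial cells 1 of 6 was past 2-fold (8.69% of all genes were), Cdh7, at 2.91 CPM in CO and 0.186 CPM in DES, and of the repressors Snai2 (18.6 and 9.06 CPM) and Zeb2 (ratio 0.163) were lower in DES.

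In CO B, spot cluster 10, with 17 spots, had a basal marker score of 2.31, and held Cdh3 at 20.3 CPM (4 UMIs), Cdh13 at 35.6 CPM (7 UMIs) and Cdh1 at 203 CPM (40 UMIs). In the DES sections, Cdh5 was highest in the spot clusters with the highest endothelial score, DES A cluster 7 (155 CPM, 31 UMIs in 80 spots) and DES B cluster 10 (213 CPM, 39 UMIs in 44 spots).

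In the DES epithelium-rich spots, 51 and 49 Cdh3 UMIs and 52 and 37 Cdh13 UMIs were counted in DES A and DES B. At the levels of the non-basal DES cells these spots would have held 2.45 and 2.32 of Cdh3 and 1.13 and 1.07 of Cdh13. Other members also lay above the single-cell level there, with 72 and 42 UMIs of Cdh11 against 4.55 and 4.32, 694 and 652 of Cdh1 against 378 and 359, 18 and 22 of Cdh16 against 6.16 and 5.84, and 9 and 7 of Cdh5 against 0.779 and 0.739. In the epithelium-rich spots of CO A and CO B, 1 and 3 Cdh3 UMIs stood against 6.89 and 5.66 at the level of CO epithelial cells. For Cdh13 there were 8 and 21 against 5.71 and 4.69. Cdh16 lay above its level in CO A (60 against 30.1) and below it in CO B (17 against 24.7). Cdh1, Cdh5 and Cdh11 lay above theirs in both CO sections. The comparison crosses assays and was not tested. In DES epithelial cluster 11, Cdh5 had 30 UMIs in 25 of 162 cells (4.91 CPM), the highest of the 16 DES clusters.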
